A study of Mus musculus with 18 samples.

Results

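Non-integrin matrix receptors are the cell surface proteins other than integrins by which a cell holds and senses its matrix. They were chosen by gene symbol, with earlier results of these data known. The members are the discoidin domain receptors Ddr1 and Ddr2, the collagen uptake receptor Mrc2, the hyaluronan receptor Cd44, the syndecans Sdc1, Sdc2, Sdc3 and Sdc4, and dystroglycan (Dag1). All 9 symbols were found among the 34591 gene symbols of the count files, and all 9 had enough counts to be tested. The cells were 4T1, an epithelial mammary tumour line of BALB/c mice, cultured in RPMI with 10% FCS, and 18 cultures in 6 groups of 3 were used for poly(A) RNA-seq. Parental cells were given fresh RPMI with 2 ng/mL recombinant human TGFb1 or fresh RPMI alone, and RNA was taken 24 h later. A Wisp1 line and an empty vector (EV) line, made by lentiviral transduction and puromycin selection, were each grown on collagen type I-coated dishes and on plastic, with RNA taken before confluence. Each stable line is a single selected line, so its 3 replicates are cultures of the same line and p-values measure the spread between cultures, not between transductions. The comparisons ask how TGFb1, Wisp1 (a secreted CCN family protein) and a collagen substrate act on these tumour cells.

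Ddr1 and Ddr2 are receptor tyrosine kinases switched on by triple-helical collagen, and Mrc2 (Endo180) binds collagen and carries it into the cell for breakdown. Syndecans are transmembrane proteoglycans whose heparan sulfate chains bind matrix proteins and growth factors, while their short cytoplasmic tails bind PDZ proteins and reach the actin cytoskeleton. Cd44 binds hyaluronan and is linked to actin by ezrin, radixin and moesin, and dystroglycan binds laminin through sugar chains that a dedicated set of enzymes builds. In mammary epithelium Sdc1 is the classic syndecan of the epithelial surface, and Cd44 and Ddr2 are often studied in tumour cells that have taken on mesenchymal features.

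The ends of the 4 syndecan coding sequences are shown because the syndecans are the members that moved in opposite directions, and because the tail is where their PDZ-binding ends can be compared. The last 102 coding bases with the stop codon are given, 5′ to 3′ on the coding strand, from GENCODE M21 transcripts of GRCm38. The last 15 bases are in capitals and encode the PDZ-binding end and the stop codon.
Sdc1 (chromosome 12, plus strand): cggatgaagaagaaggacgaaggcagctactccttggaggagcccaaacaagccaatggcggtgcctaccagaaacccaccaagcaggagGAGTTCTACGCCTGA
Sdc2 (chromosome 15, plus strand): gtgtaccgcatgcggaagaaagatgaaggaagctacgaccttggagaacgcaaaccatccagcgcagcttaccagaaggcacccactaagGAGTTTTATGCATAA
Sdc3 (chromosome 4, plus strand): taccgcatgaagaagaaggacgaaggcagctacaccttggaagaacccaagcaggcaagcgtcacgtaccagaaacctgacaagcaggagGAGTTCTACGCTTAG
Sdc4 (chromosome 2, minus strand): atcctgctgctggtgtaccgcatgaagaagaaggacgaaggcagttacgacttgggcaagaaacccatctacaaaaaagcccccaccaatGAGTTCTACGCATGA
In the 15 capital bases, 10 positions were identical in all 4 genes, and pairs of genes shared 11 to 14. Over the whole stretch aligned from the stop codon, Sdc1 and Sdc3 were identical at 55.2% of positions and the other pairs at 33.3% to 41.9%. The longest run of bases shared anywhere in these stretches was 29, between Sdc3 and Sdc4, and the run shared by all 4 was 7. The principal transcripts of the 4 genes are 2.458 to 4.973 kb long, and how reads were assigned between them was not tested.

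Sdc3 and Sdc4 also had the members' largest increase and largest decrease after TGFb1, so the 250 bases before their starts are printed, from RefSeq on GRCm38.p6 (the counts were made on mm9, per the submitters' processing notes). Capitals mark CAGAC on either strand (GTCTG on the other), the core letters of a SMAD-binding element.
Sdc3 (chr4:130792287-130792536, plus strand): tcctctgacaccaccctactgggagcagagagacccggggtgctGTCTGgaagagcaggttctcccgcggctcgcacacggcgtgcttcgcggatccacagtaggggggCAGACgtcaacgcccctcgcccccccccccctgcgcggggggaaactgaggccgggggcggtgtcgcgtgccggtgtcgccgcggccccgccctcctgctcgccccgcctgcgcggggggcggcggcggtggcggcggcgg
Sdc4 (chr2:164443189-164443438, minus strand): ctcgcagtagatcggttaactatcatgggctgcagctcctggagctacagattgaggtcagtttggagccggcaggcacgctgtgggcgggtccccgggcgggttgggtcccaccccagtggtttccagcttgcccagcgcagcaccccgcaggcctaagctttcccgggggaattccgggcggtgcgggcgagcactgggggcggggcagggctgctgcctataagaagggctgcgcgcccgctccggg
The Sdc3 window held 2 matches and the Sdc4 window held 0. The Sdc4 window lies before a RefSeq start but in the first intron of the principal GENCODE M21 transcript, the one whose coding end is printed above. The Sdc3 window lies just before its GENCODE start, so the 2 windows are not placed alike. RefSeq promoters were matched for 7 of the 9 members, Mrc2 and Sdc2 being the others. Sdc1 had 1 match, the windows before 4 listed Ddr1 starts had 0, 2, 0 and 0, and Ddr2, Cd44 and Dag1 had 0. The Ddr2 window and those of Ddr1 starts 2, 3 and 4 also lie wholly inside the gene as GENCODE M21 gives it. Of all 32851 RefSeq mouse windows of this length, 42.2% held CAGAC, so a match is common. The AP-1 motif TGANTCA, searched on both strands, occurred in 6.75% of all windows and among these members once, before a Ddr1 start. A match describes letters in a window and was not tested as a binding site.

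Gene counts came to 37552858 to 94401699 per library. Epithelial markers (Krt8, Krt18, Krt19, Cdh1, Epcam) were all expressed in every group, as the 4T1 label implies. Leukocyte markers summed to 4.22 to 22.8 CPM per library, with Cd3e at 0 in every library, and endothelial markers to at most 0.476 CPM. Among the leukocyte markers, Cd68 had group means of 4.02 to 7.91 CPM. Lyz2 had means of 3.92 to 9.11 CPM in the stable-line groups, and 0.00792 CPM in treated and 0.0239 CPM in untreated parental cells. Csf1r was at 2.4 CPM in treated and 0.166 CPM in untreated cells, and Ptprc at 0.165 and 0.639 CPM. Wisp1, the overexpressed gene, was at 957 ± 94.9 CPM in the Wisp1 line and 51.8 ± 18.2 CPM in the EV line on plastic, and at 1088 ± 33 CPM and 15.3 ± 1.08 CPM on collagen. TGFb1-treated parental cells also had more of it, 424.9 ± 167 CPM against 22.3 ± 15.7 CPM in untreated cells (all SD, n = 3 cultures a group). CPM here is the gene's counts relative to the library's gene counts, TMM-scaled over all 18 libraries. These are bulk samples, so fewer cells of a type and less RNA per cell cannot be told apart.

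Per kilobase of the principal GENCODE transcript, Sdc1 and Cd44 had the highest levels among the members in TGFb1-treated 4T1 cells, and Sdc4 and Cd44 in untreated cells. After TGFb1, Sdc1 was at 125.6 CPM per kb, Cd44 at 78.7, Sdc4 at 62.1, Dag1 at 35.6, Sdc3 at 35.2, Sdc2 at 30.7, Ddr2 at 27.2 and Ddr1 at 22.7 CPM per kb. In untreated cells Sdc4 was at 138.8 CPM per kb, Cd44 at 86.1, Sdc1 at 63.6, Dag1 at 39.8, Sdc2 at 36.2, Ddr2 at 26.3, Ddr1 at 10.0 and Sdc3 at 8.45 CPM per kb. Mrc2 was nearly absent, at 0.0488 CPM per kb in treated and 0.0645 in untreated cells, and the 18 libraries held 4 to 51 counts of it each. In the stable lines Cd44 headed the order on collagen (103.9 CPM per kb in the Wisp1 line and 101.6 in EV) and Sdc4 headed it on plastic (88.2 in the Wisp1 line and 87.4 in EV). With merged exon length in place of the principal transcript, Dag1 changed places with Sdc3 in treated cells and with Sdc2 on collagen, and no other rank among the members changed.

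**Figure D1:**
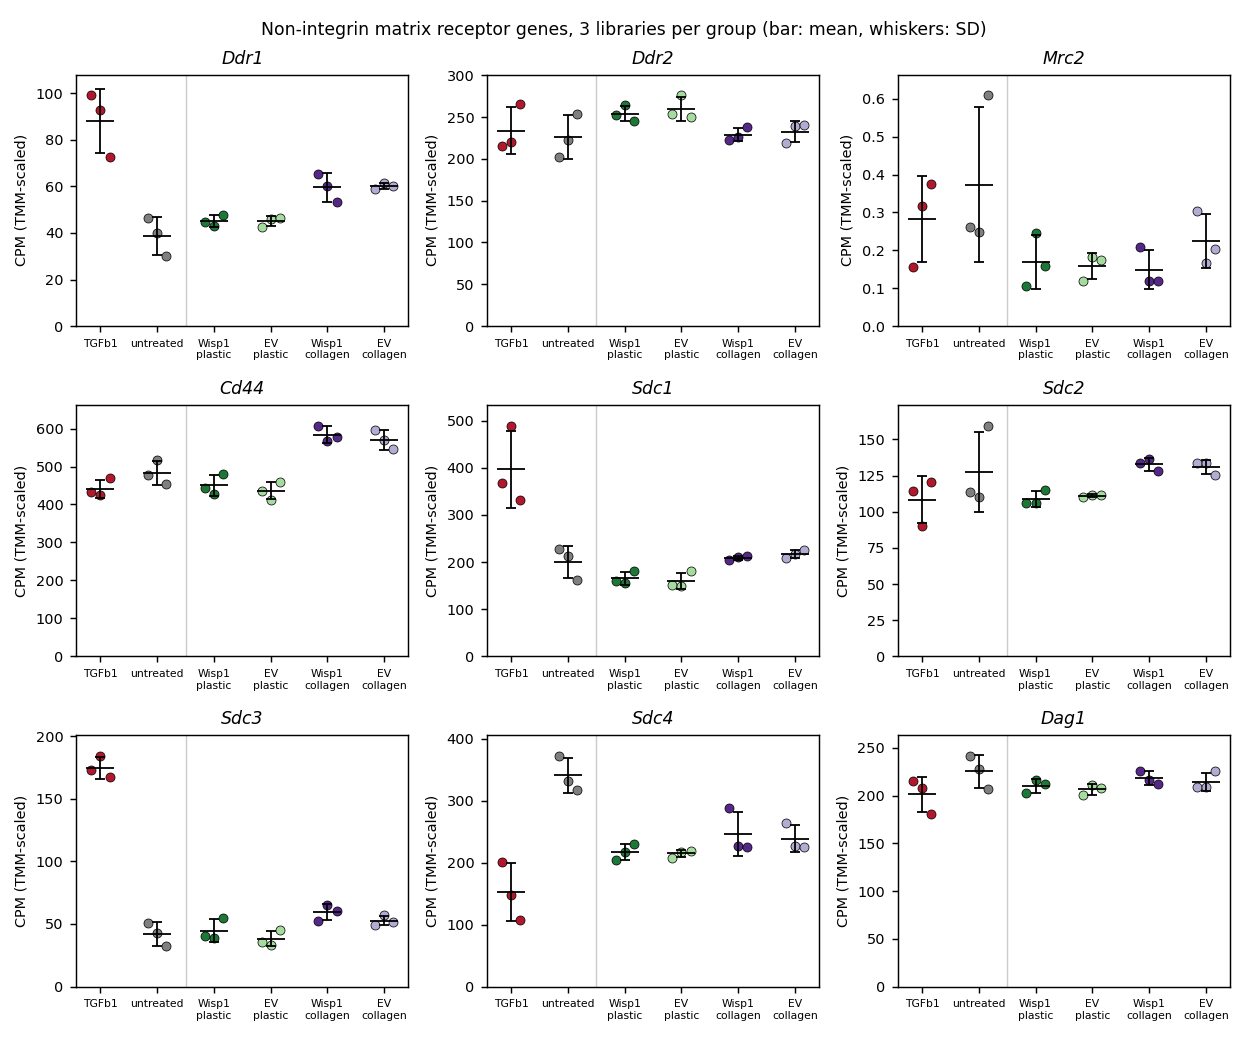
Library values of the 9 receptor genes in CPM (y axis, from 0, a separate scale per gene) in the 6 groups (x axis, TGFb1, untreated, then Wisp1 and EV on plastic and on collagen). Points are single cultures, bars are means of 3 and whiskers are SD. Sdc3, Sdc1 and Ddr1 stand highest in TGFb1-treated cells, Sdc4 lowest there, and Cd44 highest on collagen.

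In the fit without a replicate block, TGFb1 raised 3 of the 9 receptors (Sdc3, Ddr1 and Sdc1), lowered Sdc4, and left 5 without a call. Sdc3 had the largest change, 4.11-fold, and the other called members changed by 1.95- to 2.26-fold. Calls here and in what follows are at an adjusted p under 0.05 in edgeR's quasi-likelihood test (Benjamini-Hochberg over all genes tested). Unless a replicate block is named, the fit had none, and no fit with a library left out had one. Culture codes in the titles pair the TGFb1 and untreated libraries, and the fit within those pairs, given below, called 6 of the 9 members. In this comparison 11.1% of 14874 genes were called, 6.14% higher and 4.92% lower in treated cells. The 4 calls among 9 members stand beside that share. The members were chosen with earlier results of these data known, so setting them beside that share is not a test. Library values did not overlap between the groups for the same 4 members, against 30.7% of all genes tested. The median log2 change was -0.15 over the 9 members and -0.01 over all genes, since the members went in both directions.

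Sdc3, the syndecan best known from nervous tissue, was at 173, 185 and 167 CPM in TGFb1-treated cultures, against 50.8, 43.1 and 32.1 CPM in untreated cultures. The lowest treated culture was more than 3 times the highest untreated one, and every treated culture was also above every culture of the stable lines. The log2 change was 2.04 ± 0.18 (SE, 95% interval 1.61 to 2.47, adjusted p = 0.0026 in edgeR). Sdc3 was called under every alternative tried for this comparison, each left-out library included, with 0.024 as the highest adjusted p.

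Sdc1, which carries heparan sulfate and also chondroitin sulfate, was at 367, 489.5 and 332 CPM in treated cultures, against 227, 212 and 163 CPM in untreated cultures. The groups did not overlap, and the highest treated culture, replicate 2, stood well apart from its companions. The log2 change was 0.96 ± 0.19 (SE, 95% interval 0.51 to 1.42, adjusted p = 0.025 in edgeR). The call was lost in some fits with a library left out, none of which used the culture pairs, while the log2 change stayed positive. Leaving out untreated replicate 2 gave an adjusted p of 0.1 (log2 change 1.003), with 380 calls over all genes against 1645. Leaving out untreated replicate 3 gave 0.058 (log2 change 0.83), and leaving out TGFb1 replicate 2 gave 0.077 (0.79).

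Sdc4, the widely expressed syndecan of focal adhesions, went the other way, at 202, 149 and 108 CPM in treated cultures and 373, 332 and 318 CPM in untreated cultures. The highest treated culture was far below the lowest untreated one, although the treated cultures spread widely among themselves. Sdc4 was 2.26-fold lower after TGFb1, a log2 change of -1.18 ± 0.22 (SE, 95% interval -1.71 to -0.64, adjusted p = 0.022 in edgeR). Its call was lost when untreated replicate 1 was left out (adjusted p = 0.064), and likewise for untreated replicate 2 (0.089) or TGFb1 replicate 2 (0.1). Sdc2, a syndecan of mesenchymal cells, was at 114, 89.8 and 120.4 CPM in treated cultures and 114, 109.9 and 159.7 CPM in untreated cultures. Its groups overlapped, and its log2 change of -0.25 had a 95% interval of -0.69 to 0.18 (adjusted p = 0.46).

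With Sdc1 and Sdc3 higher and Sdc4 lower, the make-up of the syndecan RNA differed between the groups while its sum overlapped. Per kilobase, the 4 syndecans together came to 253.6 ± 32.4 CPM per kb in treated cells and 247 ± 17.2 CPM per kb in untreated cells, with overlapping ranges (216.8 to 278.1 and 232.7 to 266.1). Sdc1 held 49.4 ± 6.02% of that sum after TGFb1 and 25.7 ± 3.04% without it, and Sdc3 held 14.0 ± 1.32% and 3.40 ± 0.553%. Sdc4 held 24.3 ± 5.79% in treated cells, against 56.1 ± 0.746% in untreated cells (all SD, n = 3). Sdc4 was therefore the largest share in all 3 untreated cultures and Sdc1 in all 3 treated ones. The ratio of Sdc1 to Sdc4 per kilobase was 1.42 to 2.56 in treated cultures and 0.399 to 0.497 in untreated cultures. These shares rest on the same counts as the gene tests and were given no test of their own.

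**Figure D2:**
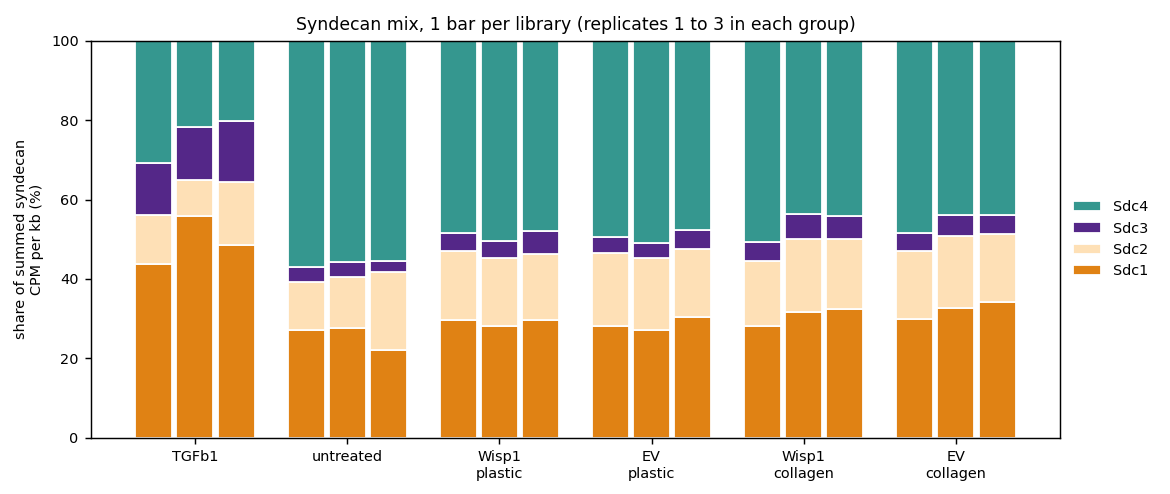
Share of each syndecan in the summed syndecan RNA (y axis, percent of CPM per kb), 1 bar per culture, with Sdc1 to Sdc4 as stacked colours. The share of Sdc4 is 24.3% in TGFb1-treated cells and 45.4% to 56.1% in the other 5 groups, and that of Sdc1 is 49.4% in treated cells and 25.7% to 32.3% elsewhere (group means).

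Among the collagen-activated kinases, Ddr1, the epithelial form, rose, and Ddr2 did not pass the test. Ddr1 was at 99.1, 92.7 and 72.5 CPM in treated cultures, against 46.3, 40.0 and 30.1 CPM in untreated cultures, with no overlap. It was 2.24-fold higher, a log2 change of 1.17 ± 0.20 (SE, 95% interval 0.69 to 1.64, adjusted p = 0.016 in edgeR), and lost its call without untreated replicate 2 (adjusted p = 0.08) or without TGFb1 replicate 2 (0.074). Ddr2, the form of mesenchymal cells, was at 215, 220.3 and 266 CPM in treated cultures and 202, 222 and 254 CPM in untreated cultures. These ranges lay over each other, and the log2 change of 0.03 had a 95% interval of -0.27 to 0.33 (adjusted p = 0.93). Per kilobase Ddr2 RNA was 1.23 ± 0.364 times Ddr1 RNA in treated cells and 2.76 ± 0.95 times in untreated cells (SD, n = 3).

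Cd44 was at 433, 424 and 469 CPM in treated cultures and 477, 518 and 455 CPM in untreated cultures, ranges that overlapped (log2 change -0.15, 95% interval -0.36 to 0.07, adjusted p = 0.4). The counts are per gene, so the splice forms of Cd44 cannot be told apart here. Dag1 was at 215.5, 208 and 181 CPM in treated cultures and 242, 228 and 207 CPM in untreated cultures, again overlapping (log2 change -0.18, 95% interval -0.44 to 0.08, adjusted p = 0.38). Mrc2 had 13, 27 and 26 counts in treated cultures and 22, 19 and 51 counts in untreated cultures. Its log2 change of -0.42 had the widest interval of the members, -1.64 to 0.80 (adjusted p = 0.7), so a change of either sign was not detectable at this depth.

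Treated and untreated libraries with the same culture code deviated together, so the comparison was also made within pairs. With the replicate block 44.9% of all genes were called, and so were 6 of the 9 members. Sdc3 (4.18-fold, adjusted p = 8.5e-05), Ddr1 (2.26-fold, 2.9e-05), Sdc1 (1.95-fold, 0.00055) and Sdc4 (2.33-fold lower, 0.00054) kept their directions. Calls were gained by Dag1, 1.13-fold lower (adjusted p = 0.018), and Sdc2, 1.19-fold lower (adjusted p = 0.043). Within pairs 1, 2 and 3, Sdc3 rose by 1.77, 2.10 and 2.38 on the log2 scale, and Ddr1 by 1.10, 1.21 and 1.27. Dag1 changed by -0.17, -0.13 and -0.20, small and alike in the 3 pairs, while Sdc2 changed by 0.01, -0.29 and -0.41, near 0 in pair 1. Sdc4 changed by -0.89, -1.16 and -1.56 and Sdc1 by 0.69, 1.21 and 1.03, of the same sign in all 3 pairs.

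**Figure D3:**
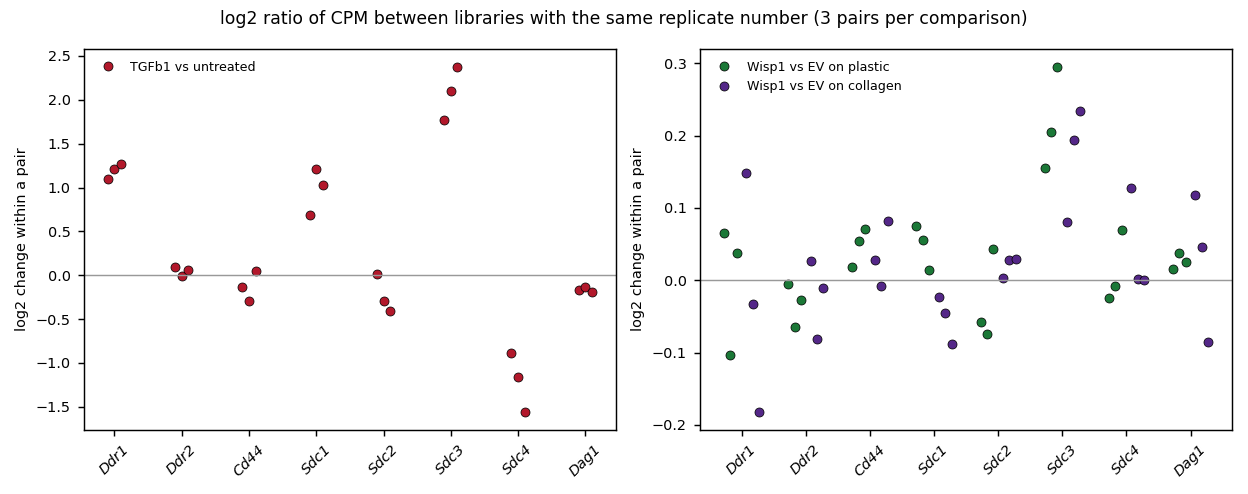
Log2 change of each receptor gene except Mrc2, whose counts are few, within same-numbered pairs of libraries (y axis), with TGFb1 against untreated parental cells in a panel of its own scale and Wisp1 against EV on plastic and on collagen beside it. Points are pairs and the horizontal line marks no change. Sdc3 is above 0 in all 9 pairs shown, by 1.77 to 2.38 for TGFb1 and by 0.08 to 0.30 for Wisp1.

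Some markers of other cell types also differed between treated and untreated cells. Of the 9 fibroblast markers, 4 averaged above 1 CPM in treated cells and 1 (Pdgfra) in untreated cells, with summed levels of 56.9 to 71.8 CPM in treated and 35.95 to 59.6 CPM in untreated cultures, which overlapped. Besides Pdgfra, those above 1 CPM in treated cells were Col1a1 (8.59 CPM against 0.983 in untreated cells), Pdgfrb (1.7 against 0.209) and Col1a2 (1.24 against 0.279). Thy1 was at 0 in both groups, and Dcn and Lum were under 0.1 CPM in both. The 7 muscle and nerve markers summed to 49.0 to 50.3 CPM in treated and 32.1 to 42.8 CPM in untreated cultures, almost all of it Mbp. Their part in the receptor results was not tested.

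**Figure D4:**
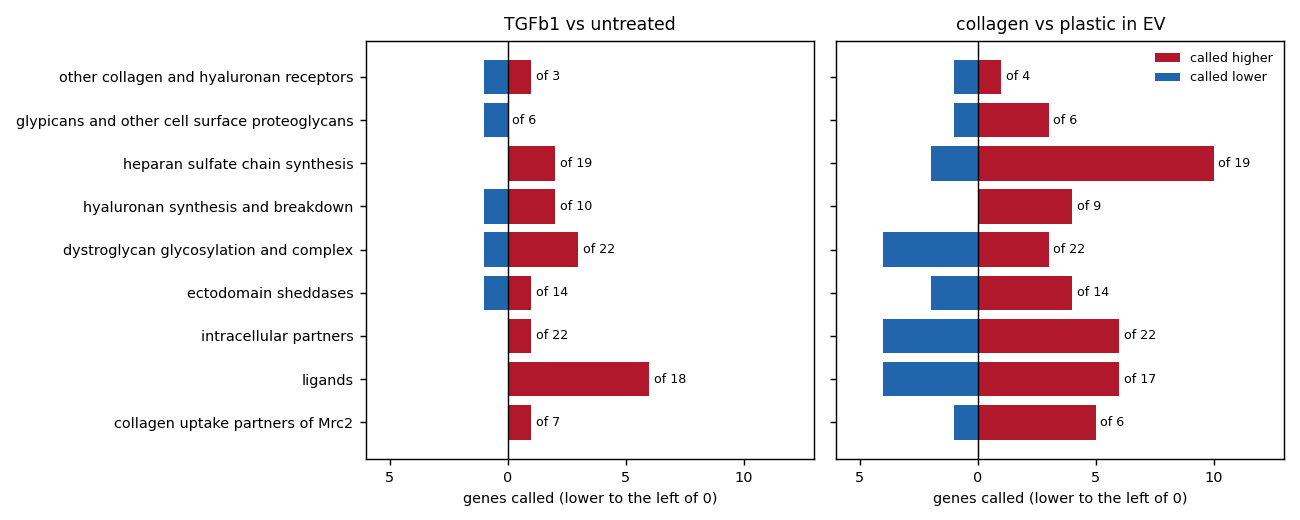
Numbers of genes called higher (bars to the right of 0) and lower (to the left), with the number tested beside them, in the lists of partners, ligands and enzymes of the receptors. TGFb1 against untreated cells is shown beside collagen against plastic in the EV line. The ligand list has 6 genes higher and 0 lower after TGFb1, and the heparan sulfate list 10 higher and 2 lower on collagen.

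The enzymes, ligands and partners of the receptors were counted from lists of known members, chosen with earlier results of these data known. Their counts stand beside the 11.1% of all genes called after TGFb1, and no list was tested as a list. Of 18 tested ligand genes, 6 were higher and 0 lower after TGFb1, and the list's median log2 change was 0.65, against -0.01 for all genes. Tnc, which encodes the syndecan ligand tenascin C, was at 74.0 ± 22.4 CPM in treated and 5.51 ± 3 CPM in untreated cells (13.2-fold, adjusted p = 0.0056). Vegfa, a heparan sulfate-binding growth factor, was 6.26-fold higher (274 ± 34.9 against 43.2 ± 8.7 CPM, adjusted p = 0.0015). Fn1, fibronectin, was 2.2-fold higher (5895 ± 808 against 2645 ± 270 CPM, adjusted p = 0.0057; SD, n = 3).

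For the sugar chains, 2 of 19 heparan sulfate genes were higher and 0 lower, a share close to the 11.1% of all genes. Ext1, a subunit of the chain-lengthening polymerase, was at 221 ± 6.65 CPM in treated and 88.5 ± 4.74 CPM in untreated cells (2.47-fold, adjusted p = 0.0014). Hs6st1, which adds sulfate to the chain, was 2.32-fold higher (adjusted p = 0.019). The hyaluronan genes had 2 higher and 1 lower of 10. Has2, a hyaluronan synthase, was at 439.5 ± 145 CPM in treated and 101.7 ± 30.8 CPM in untreated cells (4.27-fold, adjusted p = 0.013), and its relative Has3 was at 0.786 ± 0.0925 CPM and 4.95 ± 1.05 CPM (6.36-fold lower, adjusted p = 0.0028). The third hyaluronan gene called was 9930013L23Rik, listed by RefSeq as Cemip, under 1 CPM in both groups (2.72-fold higher, adjusted p = 0.05 after rounding). RNA of a synthase of the Cd44 ligand thus rose while Cd44 itself did not pass the test.

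Of 14 sheddase genes, whose products cut receptors from the surface, Adam12 was 5.68-fold higher (209.5 ± 5.35 CPM in treated and 36.4 ± 6.87 CPM in untreated cells, adjusted p = 0.0014) and Adam17 was 1.78-fold lower (adjusted p = 0.035). In the dystroglycan list 3 of 22 were higher and 1 lower, among them Dpm3, a subunit of the mannose donor synthase (3.08-fold higher, adjusted p = 0.0055), Large, which extends the laminin-binding sugar (1.76-fold higher, 0.045), and Sntb2, a syntrophin of the complex (2.30-fold lower, 0.016). Of 22 intracellular partners only Msn, moesin, was called (1.47-fold higher, adjusted p = 0.029). That is a smaller share than among all genes, but the count is too small to set the list apart and was not tested. Other collagen and hyaluronan receptors had Stab1 3.86-fold higher (adjusted p = 0.04) and Hmmr 1.46-fold lower (0.047) of 3 tested. The 6 glypicans and other surface proteoglycans had 1 call, Tgfbr3 (betaglycan), 3.45-fold lower at 0.962 ± 0.406 CPM in treated and 3.28 ± 0.687 CPM in untreated cells (adjusted p = 0.026). Of 7 genes that act with Mrc2 in collagen uptake, Lgmn, a lysosomal protease, was called (1.55-fold higher, adjusted p = 0.048).

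The same 5 of the 9 receptors (Cd44, Ddr1, Sdc1, Sdc2 and Sdc3) were higher on collagen in the Wisp1 line and in the EV line. None was lower past the test. The sample titles do not say whether collagen and plastic cultures were grown together. Substrate and any culture set that went with it cannot be told apart. The called changes were 1.24- to 1.35-fold in the Wisp1 line and 1.20- to 1.41-fold in EV. Much of the transcriptome differed between the substrates by small amounts: 40.4% of 13953 genes were called in the Wisp1 line, 21.3% higher on collagen and 19.1% lower. In the EV line 36.5% of genes were called, 19.2% higher and 17.3% lower. The members' share of higher calls, 5 of 9 in each line, stands beside those 21.3% and 19.2%. The members were chosen with earlier results of these data known, so this is not a test either. Ranges did not overlap for 5 members in the Wisp1 line and for 7 in the EV line, against 51.5% and 48% of all genes. The median log2 change of the members was 0.31 in the Wisp1 line and 0.42 in EV, against 0.01 and 0.00 for all genes. With all 18 libraries in the fit, whose spread includes the parental cultures, Cd44 was still called in both lines and Sdc1 in EV (adjusted p = 0.048). In that fit the adjusted p was 0.061 in the Wisp1 line and 0.058 in EV for Ddr1, 0.14 and 0.25 for Sdc2, and 0.11 in the Wisp1 line for Sdc1.

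Summed levels of fibroblast, leukocyte, and muscle and nerve markers were also higher in value on collagen, with no test made of them. Endothelial markers were not, at 0.0789 to 0.122 CPM on collagen and 0.0820 to 0.212 on plastic in the Wisp1 line. In EV they were at 0.129 to 0.215 CPM on collagen and 0.1205 to 0.221 on plastic. The 9 fibroblast markers summed to 26.8 to 33.4 CPM on collagen and 17.1 to 19.4 CPM on plastic in the Wisp1 line, and to 25.3 to 30.6 CPM on collagen and 17.1 to 22.8 CPM on plastic in EV. Pdgfra was the only 1 of them above 1 CPM in these 4 groups, and Lum and Thy1 were at 0. Of the rest, Col1a2, Col3a1 and Pdgfrb were lower in mean on collagen in both lines, and Dcn and Fap were higher. Col1a1 was lower in the Wisp1 line and higher in EV. The 8 leukocyte markers summed to 14.4 to 22.8 CPM on collagen and 9.69 to 14.9 CPM on plastic in the Wisp1 line, which overlapped. In EV they summed to 11.9 to 17.8 CPM on collagen and 8.97 to 10.8 CPM on plastic, which did not overlap. Lyz2 averaged 9.11 CPM on collagen and 6.29 on plastic in the Wisp1 line, and 6.97 and 3.92 in EV. Cd68 averaged 6.17 and 4.02 CPM in the Wisp1 line and 5.43 and 4.06 in EV, and Cd3e was at 0. The 7 muscle and nerve markers, mostly Mbp, summed to 35.6 to 37.4 CPM on collagen and 31.6 to 35.5 CPM on plastic in the Wisp1 line, and to 35.4 to 38.0 CPM on collagen and 29.8 to 33.3 CPM on plastic in EV. Epithelial markers summed to 2914 to 3806 CPM on collagen and 2581 to 2867 CPM on plastic in the Wisp1 line, and to 2988 to 3313 CPM on collagen and 2569 to 2771 CPM on plastic in EV. That sum was mostly Krt8 and Krt18, both higher in mean on collagen. Cdh1 was lower there, at 404 CPM against 486 on plastic in the Wisp1 line and 407 against 515 in EV. Krt19 and Epcam were higher in mean on collagen in the Wisp1 line and lower in EV. The part of these markers in the receptor results was not tested.

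Ddr1, a receptor for collagen I, was at 65.3, 60.2 and 53.1 CPM in Wisp1 cells on collagen, against 44.5, 42.8 and 47.8 CPM on plastic. EV cells had 59.0, 61.5 and 60.2 CPM on collagen, against 42.5, 46.0 and 46.6 CPM on plastic. No collagen culture of either line came down to the level of a plastic one. The log2 change was 0.43 ± 0.07 in the Wisp1 line (SE, adjusted p = 0.00019) and 0.45 ± 0.06 in EV (adjusted p = 0.00015). Ddr2, also a receptor for fibrillar collagen, was slightly lower in value on collagen, at 223, 226 and 238 CPM in Wisp1 cells against 252, 264 and 246 CPM on plastic. EV cells had 219, 239 and 240.2 CPM on collagen and 253, 276 and 250.2 CPM on plastic. Its ranges did not overlap in either line, but it did not pass the test. The log2 change was -0.12 in the Wisp1 line (95% interval -0.23 to -0.01, adjusted p = 0.073) and -0.13 in EV (-0.24 to -0.02, adjusted p = 0.057). Of the other tools, DESeq2 called Ddr2 lower in the Wisp1 line (adjusted p = 0.05 after rounding) and in EV (0.04), and limma-voom did not. Ddr2 was also called with a replicate block, although the numbers do not pair these libraries (0.046 in the Wisp1 line and 0.034 in EV, 6 members in each, with 44.7% and 40.8% of all genes called). Leaving out Wisp1 collagen replicate 3 or EV plastic replicate 2 gave it a call in the Wisp1 line (0.045 and 0.048), and leaving out Wisp1 collagen replicate 1 or EV plastic replicate 3 gave it one in EV (0.044 and 0.036).

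**Figure D5:**
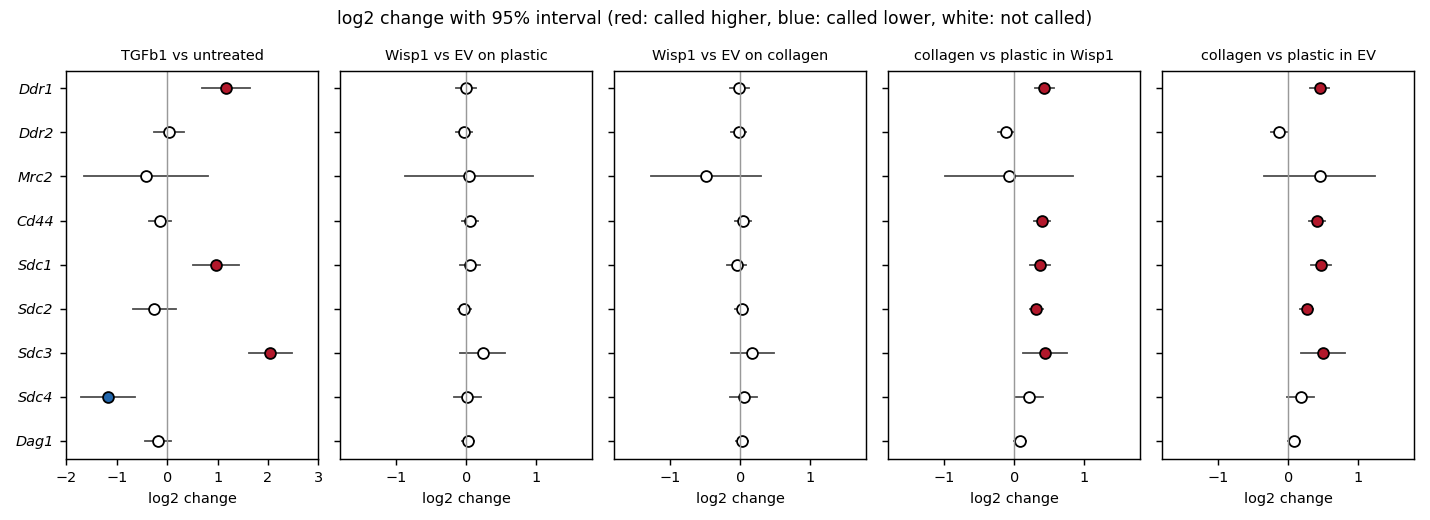
Log2 change of each receptor gene (x axis) with its 95% interval in the 5 pairwise comparisons, red where called higher, blue where called lower and white where not called. The panel of TGFb1 against untreated cells has a wider x range than the others. Collagen against plastic gives like values in the 2 lines (Ddr1 0.43 in Wisp1 and 0.45 in EV), and the intervals of Wisp1 against EV all include 0.

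Cd44 was at 608, 566 and 577 CPM on collagen and 442, 429 and 481 CPM on plastic in Wisp1 cells. EV cells had 596, 569 and 545 CPM on collagen and 437, 413 and 458 CPM on plastic. Collagen cultures of both lines were above all plastic cultures, and also above all 6 parental cultures. The log2 change was 0.40 ± 0.05 in the Wisp1 line (SE, adjusted p = 6.6e-05) and 0.42 ± 0.05 in EV (adjusted p = 5.5e-05), the smallest adjusted p among the members in each line.

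Sdc1 was at 205, 210.0 and 212 CPM on collagen and 160.3, 155 and 182 CPM on plastic in Wisp1 cells, a log2 change of 0.36 ± 0.07 (SE, adjusted p = 0.00074). With EV it was at 208, 217 and 226 CPM on collagen and 152, 149 and 180.0 CPM on plastic, a log2 change of 0.46 ± 0.07 (adjusted p = 0.00013). Plastic cultures of both lines lay wholly below the collagen ones. Sdc2 was at 134, 136 and 128 CPM on collagen and 106, 106 and 115 CPM on plastic in Wisp1 cells (log2 change 0.31 ± 0.04, adjusted p = 0.00011). With EV it was at 134, 134 and 125 CPM on collagen and 110.1, 112 and 112 CPM on plastic (log2 change 0.26 ± 0.04, adjusted p = 0.00042). Sdc2 thus also separated the substrates in every culture; its change was smaller in value than that of Sdc1, a difference between genes that was not tested.

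Sdc3 was at 52.4, 65.3 and 60.6 CPM on collagen and 40.1, 38.5 and 55.1 CPM on plastic in Wisp1 cells. With EV it was at 49.6, 57.1 and 51.5 CPM on collagen and 36, 33.4 and 44.9 CPM on plastic. In the Wisp1 line plastic replicate 3 lay above the lowest collagen culture, and the EV groups did not overlap. The log2 change was 0.44 ± 0.14 in the Wisp1 line (SE, 95% interval 0.12 to 0.75, adjusted p = 0.03) and 0.50 ± 0.14 in EV (interval 0.19 to 0.81, adjusted p = 0.018). This was the least firm of the 5 calls. In the Wisp1 line it was lost without Wisp1 plastic replicate 1 (0.1) or 2 (0.1), without Wisp1 collagen replicate 2 (0.094) or 3 (0.075), and with only the 6 libraries of that line in the fit (0.055). In EV it was lost without EV plastic replicate 1 (adjusted p = 0.058), EV plastic replicate 2 (0.073) or EV collagen replicate 2 (0.062). It was also lost with no filter on low counts (0.096 in the Wisp1 line and 0.063 in EV) and with all 18 libraries in the fit (0.11 and 0.079).

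Sdc4 was at 288, 226 and 225 CPM on collagen and 204, 217 and 229.9 CPM on plastic in Wisp1 cells. With EV it was at 264, 226 and 225 CPM on collagen and 208, 218 and 219 CPM on plastic. Replicate 1 on collagen was the high culture in both lines. The log2 changes of 0.21 in the Wisp1 line (95% interval 0.02 to 0.40, adjusted p = 0.071) and 0.18 in EV (-0.01 to 0.37, adjusted p = 0.14) did not pass the test. Without Wisp1 collagen replicate 2, Wisp1 collagen replicate 3 or EV collagen replicate 1 it was called in the Wisp1 line (0.041, 0.037 and 0.046). In EV it was called without Wisp1 collagen replicate 1 (0.024) and with only the 6 EV libraries in the fit (0.048). Dag1 was within 200.3 to 226 CPM in all 12 stable-line cultures (log2 change 0.08 in each line, adjusted p = 0.12 in the Wisp1 line and 0.13 in EV), with 95% intervals from just under 0 to 0.17. Mrc2 had 17, 6 and 6 counts on collagen and 4, 9 and 9 on plastic in Wisp1 cells, and 17, 11 and 19 on collagen and 5, 14 and 9 on plastic in EV. Its log2 changes of -0.07 in the Wisp1 line and 0.45 in EV had intervals of -0.99 to 0.84 and -0.34 to 1.24, and no change was detectable at these counts.

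The syndecan make-up differed less between substrates than between treated and untreated cells. Sdc4 held 46.3 ± 3.94% of the syndecan RNA per kilobase on collagen and 48.9 ± 1.27% on plastic in the Wisp1 line, and 45.4 ± 2.7% and 49.3 ± 1.58% in EV. Sdc1 held 30.7 ± 2.28% on collagen and 29.1 ± 0.844% on plastic in the Wisp1 line, and 32.3 ± 2.22% and 28.6 ± 1.72% in EV. The sum of the 4 was higher on collagen, at 216.1 ± 12.6 CPM per kb against 180.6 ± 12.5 on plastic in the Wisp1 line, and at 213.4 ± 6.66 against 177.4 ± 8.37 CPM per kb in EV (SD, n = 3). The ratio of Ddr2 to Ddr1 per kilobase was 1.75 ± 0.249 on collagen and 2.55 ± 0.232 on plastic in the Wisp1 line, and 1.74 ± 0.0634 and 2.60 ± 0.159 in EV. These shares, sums and ratios were given no test.

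The lists around the receptors held higher and lower genes on collagen, and their counts stand beside the 40.4% of all genes called in the Wisp1 line and the 36.5% called in EV. In the Wisp1 line the counts of higher and lower genes were 5 and 1 of 6 for collagen uptake, 8 and 3 of 19 for heparan sulfate, and 6 and 0 of 9 for hyaluronan. They were 5 and 3 of 22 for dystroglycan, 3 and 0 of 14 for sheddases, 8 and 6 of 22 for intracellular partners, 6 and 2 of 17 for ligands, 3 and 1 of 6 for proteoglycans, and 0 and 0 of 4 for the other receptors. The dystroglycan list thus lay near the all-gene share in that line. The sheddase list lay below it in value, which was not tested, and the 4 other receptors are too few to set beside it. In EV, all 6 tested genes that act with Mrc2 in collagen uptake were called, 5 higher and 1 lower. Plaur, the urokinase receptor, which forms a complex with Mrc2, was at 170.4 ± 2.01 CPM on collagen and 71.8 ± 5.65 CPM on plastic (2.42-fold, adjusted p = 2.3e-09), and Lgmn was 1.63-fold lower (adjusted p = 1.5e-06). Mmp14, a membrane collagenase that also sheds Cd44 and syndecans, was 1.85-fold higher (286 ± 22.5 against 157 ± 15.2 CPM, adjusted p = 2.3e-06). Mrc2 itself stayed under 1 CPM in every library.

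Of 19 heparan sulfate genes, 10 were higher and 2 lower on collagen in EV. Ndst3, a sulfotransferase, was 2.19-fold higher (adjusted p = 1.2e-05), B3gat3, which completes the linker of the chain, was 1.37-fold higher (3.2e-05), and Hs6st1 was 1.56-fold lower (9.2e-05), the other direction from TGFb1. Hyaluronan genes had 4 higher and 0 lower of 9, led by Has3, at 5.45 ± 0.778 CPM on collagen and 1.42 ± 0.338 CPM on plastic (4.01-fold, adjusted p = 1.5e-06), then Hexa (1.66-fold, 3e-05) and Tmem2, a surface hyaluronidase (1.27-fold, 0.00024). In the dystroglycan list 3 were higher and 4 lower of 22. They included Gyltl1b, listed by RefSeq as Large2, a relative of Large (2.42-fold higher, adjusted p = 1.4e-07), Sntb2 (1.39-fold higher, 4.1e-06) and B3gnt1 (1.24-fold higher, 0.00024).

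Sheddase genes had 4 higher and 2 lower of 14, with Mmp14 and the gamma-secretase subunits Ncstn (1.14-fold, adjusted p = 0.0019) and Psenen (1.17-fold, 0.016) higher and Adam17 1.07-fold lower (0.034). Both this list and the dystroglycan list lie near the 36.5% of all genes called. Of 22 intracellular partners 6 were higher and 4 lower, also not far from that share. Ezr, ezrin, was 1.25-fold higher (adjusted p = 2.6e-05) and Rdx, radixin, 1.14-fold lower (0.00071), so these Cd44 linkers differed in direction, and the adaptor Shc1 was 1.17-fold higher (0.0013). The ligand list had 6 higher and 4 lower of 17. Its higher genes included the laminin chain Lama5 (1.56-fold, adjusted p = 2.8e-06) and the basement membrane collagens Col4a2 (1.30-fold, 1.2e-05) and Col4a1 (1.25-fold, 4.3e-05), while Col1a2, under 1 CPM on both substrates, was 2.69-fold lower (0.00099). Among surface proteoglycans 3 of 6 were higher and 1 lower, with the neuropilins Nrp2 1.42-fold higher (adjusted p = 2e-06) and Nrp1 1.42-fold lower (0.014), and the glypican Gpc1 1.20-fold higher (0.029). Of 4 other collagen and hyaluronan receptors, Cd36 was 2.64-fold higher at about 1 CPM (0.0032) and Hmmr 1.15-fold lower (0.0023).

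Wisp1 against EV gave no call among the 9 receptors on either substrate in edgeR, where 0.0143% of 13953 genes were called on plastic (2 genes) and 0.0717% on collagen (10 genes). DESeq2 and limma-voom also called 0 members, and 0 had an unadjusted p under 0.05, against 822 of all genes on plastic and 707 on collagen. Ranges overlapped for all 9 members on both substrates, against non-overlap in 12.5% of genes on plastic and 9.42% on collagen. For Ddr1, Ddr2, Cd44, Sdc1, Sdc2, Sdc4 and Dag1 the log2 changes were between -0.06 and 0.05, and their 95% intervals lay within -0.20 and 0.24. Mrc2, with few counts, had intervals of -0.88 to 0.96 on plastic and -1.27 to 0.30 on collagen. The lists of enzymes, ligands and partners had 0 calls on either substrate.

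Sdc3 had the largest value on plastic and, but for Mrc2, on collagen, a log2 change of 0.23 on plastic (95% interval -0.08 to 0.55, adjusted p = 0.85) and 0.17 on collagen (-0.14 to 0.48, adjusted p = 1). The titles of the Wisp1 and EV libraries share only replicate numbers, so any pairing was read from the same counts that were tested. Wisp1 and EV libraries with the same number deviated together on each substrate, so the test was repeated with a replicate block within each substrate. Sdc3 was then called, 1.17-fold higher on plastic (adjusted p = 0.0067, with 3.15% of all genes called) and 1.12-fold higher on collagen (adjusted p = 0.019, with 2.57% called). It was higher in the Wisp1 library of all 6 pairs, by 0.16, 0.21 and 0.30 on the log2 scale on plastic and by 0.08, 0.19 and 0.23 on collagen. A block by number over all 4 groups did not give that call (adjusted p = 0.67 and 0.85). The EV and Wisp1 libraries differ in line as well as in vector, and with a single line of each these cannot be told apart.

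For no receptor did the change with collagen differ between the lines past the test. The interaction test called 0 of 13953 genes in edgeR (410 at an unadjusted p under 0.05, and 1 adjusted call each in DESeq2 and limma-voom) and 0 of the 9 members. With the replicate block within each substrate, in which Wisp1 and EV libraries are paired, it called 70 genes (0.502%), again with 0 members. For Ddr1, Ddr2, Cd44, Sdc2 and Dag1 the difference of log2 changes (Wisp1 line minus EV) was between -0.02 and 0.05, with 95% intervals within -0.21 and 0.18. It was -0.10 for Sdc1 (-0.30 to 0.10), -0.06 for Sdc3 (-0.50 to 0.38), 0.04 for Sdc4 (-0.23 to 0.31) and -0.52 for Mrc2 (-1.74 to 0.69). The collagen comparisons and the Wisp1 comparisons share libraries, so their values are not independent of each other.

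Across all 6 groups, Sdc3, Sdc1 and Ddr1 stood highest in TGFb1-treated cells, with no overlap with the next group. For Sdc1 the next group was EV on collagen (217 ± 8.80 CPM), and from there down each neighbouring pair of groups overlapped. For Ddr1 the collagen groups (60.2 ± 1.29 CPM in EV and 59.5 ± 6.16 in Wisp1) came next and were clear of the plastic groups (45.1 ± 2.54 in Wisp1 and 45.1 ± 2.21 in EV), which overlapped untreated cells (38.8 ± 8.18). Sdc4 was highest in untreated parental cells (341 ± 28.4 CPM), clear of Wisp1 on collagen (247 ± 35.8), and lowest in treated cells (153 ± 47.2), clear of EV on plastic (215 ± 6.33). For Cd44 the Wisp1 (584 ± 21.8) and EV (570.1 ± 25.6) collagen groups overlapped each other and were clear of untreated cells (483 ± 31.9). For Ddr2, Sdc2, Dag1 and Mrc2 every neighbouring pair of groups overlapped (all SD, n = 3). The parental and stable cultures differ in medium change, vector and culture set, which cannot be told apart, so they were not tested against each other.

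Over the 18 libraries, the members with the most alike log2 CPM were Sdc1 and Sdc3 (Pearson r = 0.95), then Ddr1 and Sdc3 (0.88) and Ddr1 and Sdc1 (0.85). Sdc4 ran against Sdc3 (-0.65) and along with Dag1 (0.79). Among 10510 other genes with a mean of at least 5 CPM, the closest to Sdc3 were Il4ra (0.99) and Zmiz1 (0.98), to Sdc1 Slc4a2 and Pofut2 (0.97 each), to Ddr1 Mvp and Fam65a (0.98 each), and to Sdc4 Bcl2 (0.96) and Tinagl1 (0.95). In the 12 stable-line libraries alone, r was 0.94 for Il4ra with Sdc3, 0.97 for Slc4a2 with Sdc1, 0.91 for Mvp with Ddr1 and 0.51 for Bcl2 with Sdc4. The closest genes to Cd44 were Neo1 and Ltbp4 (0.93 each), to Dag1 Nxn (0.95) and Pcolce (0.90), to Ddr2 Tab2 (0.93) and Phf16 (0.92), to Sdc2 Afap1l2 and Trpc2 (0.84 each), and to Mrc2 Lsmd1 (0.88) and Lyrm2 (0.86). Mrc2 was at most 0.609 CPM in any library, and 0.5 CPM was added before the log. In the 12 stable-line libraries its r was 0.62 with Lsmd1 and 0.54 with Lyrm2. These correlations describe libraries that share groups and culture sets, and carry no test.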

How the data were processed

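Poly(A) RNA-seq of 18 cultures of 4T1 cells was analysed from the deposited tables of raw counts per gene symbol, which the authors did not normalize. Per the labels' protocols, RNA was column-purified and the library kit kept strand. Per the submitters' processing notes the tools included HTSeq, STAR, BWA, CASAVA, limma and R 3.2.4, and the build was mm9, without roles or order. The annotation used, and whether counting was stranded, is not given in the sources used here. The 5 summary entries of each table were left out; reads outside genes were 10.2 to 13.5% of each library and ambiguous reads 1.02 to 2.08%. Between replicates of a group, the chi-squared statistic per degree of freedom ranged over 3.25 to 212.5, so no 2 replicates of a group agreed within sampling noise.

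Counts were fitted with edgeR 4.0.16 in R 4.3.3 (filterByExpr, TMM, robust quasi-likelihood F tests). TGFb1 was tested in the 6 parental libraries, and the other comparisons in the 12 stable-line libraries with 4 group means. Calls are at Benjamini-Hochberg adjusted p under 0.05 over all genes tested; the standard error is the absolute log2 change divided by the square root of the F statistic. Alternatives were RLE size factors, DESeq2 1.42.0, limma-voom (limma 3.58.1), no filter, at least 1 CPM in 3 libraries, other sample sets, replicate blocks and leaving out each library. The code was tested on simulated data.

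Same-numbered libraries deviated together for TGFb1 and untreated cells, which share culture codes in their titles (r of deviations 0.834, 0.681 and 0.809), and for Wisp1 and EV on plastic (0.217, 0.341 and 0.366) and on collagen (0.646, 0.298 and 0.482). Every such r was over 0.1, so these comparisons were also fitted within pairs. The calls reported first for each comparison come from fits without a replicate block. Collagen and plastic libraries were not taken as paired (-0.139 to -0.0522 in Wisp1 and -0.168 to 0.382 in EV).

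The members and lists were chosen with earlier results of these data known. Text names all 9 members, from each list the up to 3 called genes of smallest p and the first that moved the other way (TGFb1, and collagen in EV), and the 2 genes of highest Pearson r with each member; 1 gene that the rule names is not reported here.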

Additional observations from a re-analysis of the deposited data

How the results depend on the processing

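After TGFb1, 4 members were called under all settings other than the replicate block and leaving out a library; leaving out each library gave 1 to 4, and 1 (Sdc3) without untreated replicate 2 or TGFb1 replicate 2. With the replicate block it was 6, and no library was left out of that fit. With the replicate block within each substrate, members called were 1 (Sdc3) for Wisp1 on plastic and 1 on collagen, against 0; leaving out libraries gave 0 for both and for the interaction. For collagen, all 18 libraries in the fit left 1 member (Cd44) in Wisp1 and 2 (Cd44, Sdc1) in EV, against 5 each; leaving out libraries gave 4 to 6 and 4 to 7, and the unpaired replicate block gave 6 in each, adding Ddr2. Of 1045 recomputed values, 950 kept direction and call, 25 lost a call, 17 gained one and 53 changed sign, and 0 of those 53 were called.

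The sign changes were all near 0 or in Mrc2. Ddr1 for Wisp1 on plastic was 0.00212 (RLE), 0.002097 (DESeq2) and 0.0002997 (all 18 libraries), and the Dag1 interaction 0.0003124 (limma-voom) and 0.0003565 (replicate block). Leaving out libraries gave these log2 ranges. Interaction: Cd44 -0.05225 to 0.02977, Dag1 -0.02571 to 0.0313, Ddr1 -0.0889 to 0.0575, Ddr2 -0.0366 to 0.04275, Sdc3 -0.1928 to 0.1189, Sdc4 -0.08986 to 0.1173. Wisp1 on collagen: Cd44 -0.005666 to 0.06814, Dag1 -0.001656 to 0.0554, Ddr1 -0.09014 to 0.05626, Sdc2 -0.01845 to 0.04315, Sdc4 -0.07817 to 0.129. Wisp1 on plastic: Ddr1 -0.04304 to 0.03271, Ddr2 -0.06769 to 0.01048, Mrc2 -0.2592 to 0.2418, Sdc1 -0.02144 to 0.1297, Sdc4 -0.02788 to 0.04959. TGFb1: Ddr2 -0.06853 to 0.1182, Mrc2 -0.6703 to 0.1147. Collagen in Wisp1: Mrc2 -0.4609 to 0.2227.

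Over all genes, calls for TGFb1 were 1645, against 2910 with DESeq2, 4865 with 18 libraries, 6672 with the replicate block and 380 to 1430 with a library left out. For Wisp1 on plastic they were 2, against 18 with DESeq2 and 440 with the block within substrate, and on collagen 10, against 40 and 358. For collagen they were 5641 in Wisp1 and 5095 in EV, against 2071 and 1629 with 18 libraries. Mrc2 was not tested under the stricter filter. With 3 cultures a group and 4 to 51 counts, Mrc2 is the member these data limit most. The causes were not tested.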
